A study of Mus musculus with 18 samples.

Results

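Heat shock chaperone genes were followed gene by gene in mouse dendritic cells (DCs) that migrated in collagen gels or stayed in suspension. The genes are 10 rows of a table of 29875 genes, chosen by symbol: Hspa1a, Hspa1b, Hspa8, Dnajb1, Hsph1, Bag3, Hsp90aa1, Hsp90ab1, Hspd1, and Hspe1. All 10 are among the 13844 genes that passed a filter on low counts and were tested. The first 8 encode proteins of the cytosol. Hspd1 and Hspe1 encode the chaperonin of the mitochondrial matrix, so they are described apart. Every group was made from bone marrow of wild-type C57Bl6/J mice 8 to 12 weeks old, differentiated with GM-CSF and matured from day 8 with lipopolysaccharide (LPS) at 200 ng/ml for 24 hours, and no group lacked LPS. The cells were then placed in migration chambers in collagen of 1.7, 2.6, 3.5, or 4.4 mg/ml, with a gradient of the chemokine CCL19, and RNA was taken 5 hours after the gradient was set up. The controls were cells in the same chambers with no collagen. One suspension group is titled with CCL19 and the other without, but the library names give the opposite states, so the groups are called here by their titles and no CCL19 effect is read from them. Each of the 6 groups has 3 replicates. The library names give each replicate number its own date and sequencing lane, so this number is also a batch, and each batch holds every group once.

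Heat shock chaperones bind unfolded stretches of other proteins and keep them from clumping. HSP70 proteins do this in a cycle of ATP hydrolysis, which J-domain proteins such as Dnajb1 start and nucleotide exchange factors such as Hsph1 and Bag3 reset. HSP90 proteins take over clients in a late stage of folding, among them kinases and steroid receptors. The transcription factor Hsf1 drives many of these genes by binding heat shock elements, inverted repeats of the letters GAA. In DCs, HSP70 and HSP90 are also known for handling antigen.

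The libraries held 13062944 to 28059839 counts, so 3 counts correspond to 0.0941 to 0.256 CPM, the count divided by the scaled library total in units of 1e6. A gene counts as called, higher, or lower where its adjusted p, over all genes tested, was under 0.1. DC markers were abundant in every library: 12 markers, Cd74, Ccr7, and Fscn1 among them, summed to between 18840 and 60700 CPM. Of these, 0 were higher in collagen and 1, Flt3, was lower (edgeR adjusted p = 0.0446). All 8 eosinophil markers tested were lower in collagen, with a summed median of 347 CPM in suspension (118 to 1360) and 43.6 CPM in collagen (14.1 to 169.5), and so were 2 of 10 neutrophil markers, Ly6g and Cxcr2 (summed 641 to 9944 CPM in suspension and 1054 to 5241 CPM in collagen). Of 6 mast cell and basophil markers and 2 lymphocyte markers tested, 0 were called. Their part in the chaperone values was not tested, and in bulk RNA fewer cells of a type cannot be told apart from less RNA per cell. The replicates also differed in sex. The transcript Xist had at least 380 counts in each library of replicates 1 and 2 and 0 in replicate 3, and 4 Y-linked genes summed to at most 2 counts in the former and at least 1066 in the latter, whereas the methods name male mice.

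The inducible HSP70 genes Hspa1a and Hspa1b were by far the most changed of the 10. Both encode nearly the same protein, the HSP70 that cells make under stress. Hspa1a was at 4.21, 2.23, and 2.61 CPM in suspension titled without CCL19 (replicates 1, 2, and 3) and at 3.42, 1.00, and 1.53 CPM in suspension titled plus CCL19. It was at 15.5, 7.33, and 6.36 CPM at 1.7 mg/ml and at 20.2, 15.5, and 20.5 CPM at 2.6 mg/ml. It was at 20.2, 6.81, and 7.97 CPM at 3.5 mg/ml and at 40.7, 56.2, and 18.2 CPM at 4.4 mg/ml. All 12 collagen libraries lay above all 6 suspension libraries, which held for 0.506% of the genes tested and, among the 10, for Hspa1a alone. In collagen the mean was 19.6 ± 14.9 CPM (SD, n = 12) against 2.50 ± 1.19 CPM (SD, n = 6), a log2 change of 2.78 (SE 0.38, 6.86-fold, edgeR adjusted p = 5.15e-04).

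Hspa1b was at 8.73, 3.78, and 2.96 CPM in suspension titled without CCL19 and at 5.06, 1.07, and 1.08 CPM in suspension titled plus CCL19. It was at 35.5, 23.5, and 6.83 CPM at 1.7 mg/ml and at 59.2, 62.0, and 75.4 CPM at 2.6 mg/ml. It was at 75.8, 18.3, and 6.55 CPM at 3.5 mg/ml and at 124.4, 77.9, and 54.8 CPM at 4.4 mg/ml. The groups overlapped only where replicate 3 at 1.7 and 3.5 mg/ml fell below replicate 1 of the suspension titled without CCL19. Within each replicate number, all 4 collagen libraries were above both suspension libraries. The collagen mean was 51.7 ± 35.1 CPM (SD, n = 12) against 3.78 ± 2.88 CPM (SD, n = 6), a log2 change of 3.67 (SE 0.57, 12.7-fold, edgeR adjusted p = 0.00103).

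**Figure D1:**
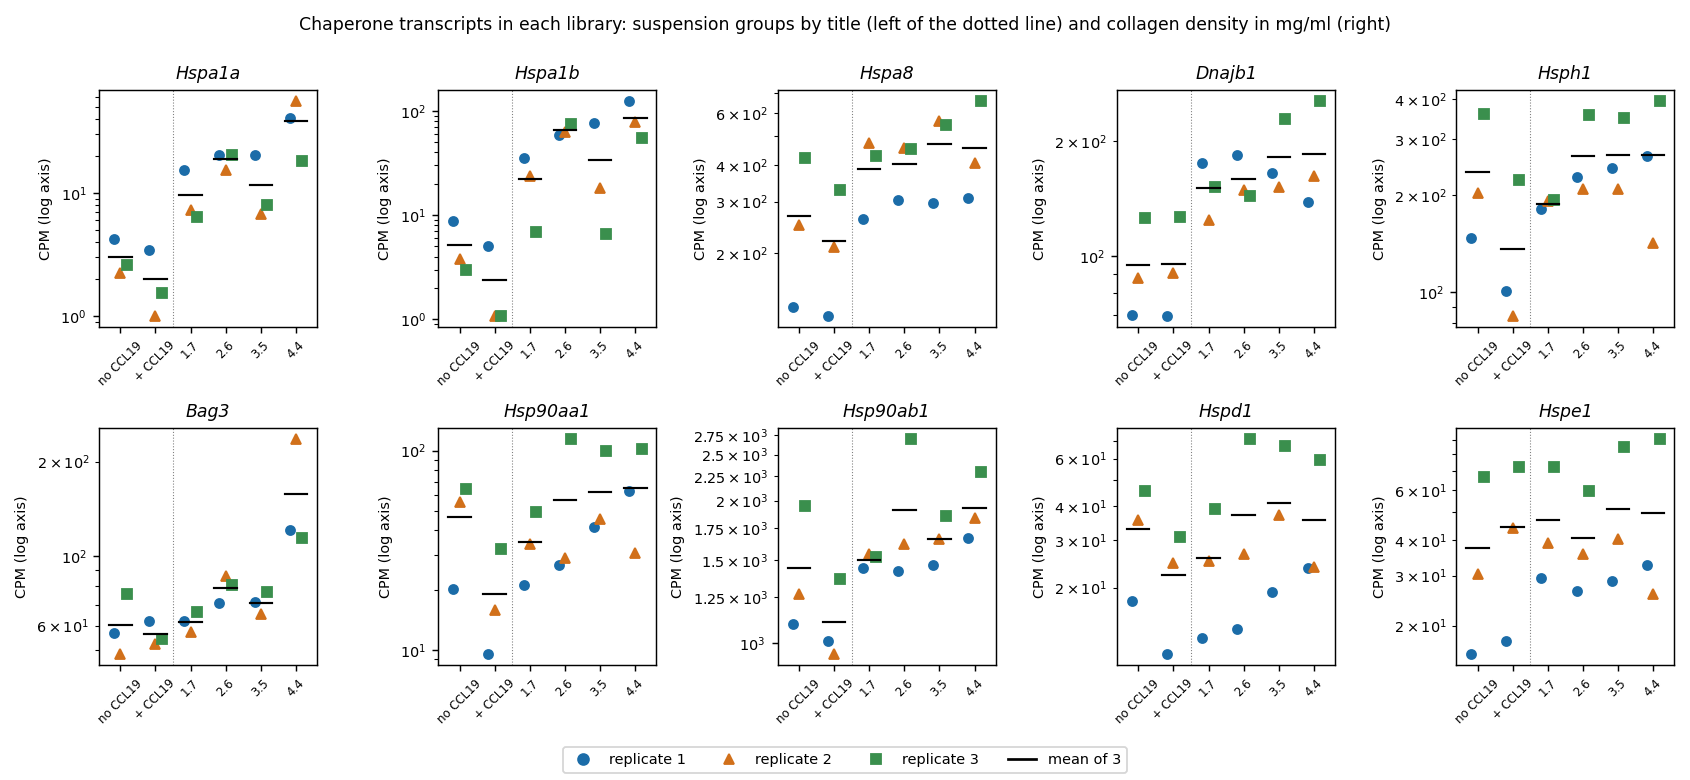
CPM of each of the 10 genes (log axis) in the 18 libraries, by suspension group and collagen density in mg/ml. Points are libraries, with a symbol for each replicate number, and lines are means of 3. Hspa1a and Hspa1b stand highest at 4.4 mg/ml and lowest in suspension, and Bag3 stands apart at 4.4 mg/ml, whereas Hspd1 and Hspe1 separate by replicate number more than by group.

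The pair lies on chromosome 17 of GRCm38, Hspa1a (ENSMUSG00000091971) at chr17:34969190-34972156 and Hspa1b (ENSMUSG00000090877) at chr17:34956436-34959238, both on the minus strand. Of the windows of 50 bases, the read length, along their transcripts, 60.3% of those of Hspa1a and 62.3% of those of Hspa1b also occur in another gene, and 1716 are common to both. How the authors assigned such reads is not given in the sources used here, so the split between the 2 genes is uncertain. Hspa1b made up 41.3% to 67.5% of their joint counts in suspension and 45.1% to 80.0% in collagen. Summed into 1 row, they had a log2 change of 3.37 (SE 0.48, 10.4-fold, edgeR adjusted p = 6.6e-04).

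The starts of the pair are nearly identical too, and the letters of a heat shock element can be read there. RefSeq promoter windows (GRCm38.p6, 250 bases before to 50 after the start) matched 7 of the 10 genes by symbol, and Hspa8, Hsp90aa1, and Hsp90ab1 were not among them. Of the 250 bases before the start, 247 are the same in Hspa1a and Hspa1b, or 98.8%. The last 150 are shown for this pair, the most changed genes, and for Hspe1, whose start lies next to that of Hspd1, since its window holds more of these letters than theirs. Capitals mark GAANNTTC or TTCNNGAA, and each line runs 5′ to 3′ on the gene's own strand.
Hspa1a, chr17:34972157-34972306, minus strand: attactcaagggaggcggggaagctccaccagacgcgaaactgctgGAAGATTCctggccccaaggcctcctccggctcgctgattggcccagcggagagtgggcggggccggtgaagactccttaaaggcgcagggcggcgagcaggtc
Hspa1b, chr17:34959239-34959388, minus strand: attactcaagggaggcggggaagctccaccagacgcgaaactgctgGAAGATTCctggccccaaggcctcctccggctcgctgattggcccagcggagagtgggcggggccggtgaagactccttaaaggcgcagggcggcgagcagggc
Hspe1, chr1:55087998-55088147, plus strand: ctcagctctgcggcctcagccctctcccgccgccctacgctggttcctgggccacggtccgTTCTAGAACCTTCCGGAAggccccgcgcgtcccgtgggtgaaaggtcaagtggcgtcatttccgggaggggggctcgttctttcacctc

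Both HSP70 windows hold GAAGATTC once, 104 to 97 bases before the start. These 2 forms, searched on both strands, occur in 15.1% of all 32851 promoter windows, so their presence alone sets no gene apart. The longer forms GAANNTTCNNGAA and TTCNNGAANNTTC, which overlap the short ones, occur in 0.603% of windows. Among the genes with a window they occur in that of Hspe1, in 1 of 2 windows of Hspd1 (the same bases, 1:55088059 to 55088076), and in Hsph1, where they lie after the start. Bag3 holds 1 short form after its start and Dnajb1 holds 0. The search took exact repeats only, and whether these letters bear on the collagen change was not tested. A match is a string of letters and was not tested as a binding site.

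Hspa8, the HSP70 that cells make at all times, was higher in collagen by a smaller factor from a much higher level. In suspension it was lowest at 122 CPM, with a median of 230.1 and a highest value of 423 CPM (n = 6), and in collagen it ran from 262.5 through 440.2 to 660.4 CPM (n = 12). Replicate 1 was the lowest of each group, at 132 and 122 CPM in suspension and 262.5 to 308 CPM in collagen, so the groups overlapped across replicates, but within each replicate number all 4 collagen libraries were above both suspension libraries. The log2 change was 0.82 (SE 0.28, 1.76-fold, edgeR adjusted p = 0.0661), and 0.90 with replicate as a block (adjusted p = 4.74e-04). Without the block the call was lost when any 1 of 6 libraries was left out (adjusted p up to 0.142). It was also lost with all libraries of replicate 2 left out (adjusted p = 0.453). Of its 50-base windows, 73.2% occur elsewhere, mostly in pseudogenes, and the 5 of these in the table held at most 0.464% of its counts each.

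Dnajb1, a J-domain protein that activates HSP70, was higher by the same factor with less scatter. It was at 70.2, 87.8, and 126.1 CPM in suspension titled without CCL19 and at 69.7, 90.4, and 126.3 CPM in suspension titled plus CCL19, so the suspension groups differed by replicate and hardly by title. Collagen libraries ran from 124 through 157 to 254 CPM, and only replicate 2 at 1.7 mg/ml (124 CPM) lay below the highest suspension library. Within each replicate number, collagen and suspension did not overlap. The log2 change was 0.82 (SE 0.20, 1.77-fold, edgeR adjusted p = 0.0124). It remained called with any single library left out (adjusted p at most 0.0403) but not with all 6 libraries of replicate 1 or of replicate 2 left out (adjusted p up to 0.17).

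Bag3, which couples HSP70 to the autophagy of damaged proteins and of stretched cytoskeleton, stood apart at the highest density. It was at 57.0, 48.7, and 75.7 CPM in suspension titled without CCL19 and at 62.0, 52.6, and 54.4 CPM in suspension titled plus CCL19. It was at 61.9, 57.1, and 66.4 CPM at 1.7 mg/ml, at 70.6, 86.5, and 80.9 CPM at 2.6 mg/ml, and at 71.2, 65.4, and 76.5 CPM at 3.5 mg/ml. It was at 120.9, 236.4, and 114.1 CPM at 4.4 mg/ml. The 3 libraries at 4.4 mg/ml were thus above all 15 others, and the libraries at 1.7 mg/ml lay within the range of the suspension. At 4.4 mg/ml the log2 change from suspension was 1.43 (SE 0.23, 2.69-fold, edgeR adjusted p = 0.00211), and 1.01 (adjusted p = 0.0125) without replicate 2, the library at 236.4 CPM. Over all densities it was 0.56 (SE 0.17, 1.47-fold, edgeR adjusted p = 0.0424). That call was lost without replicate 2 of the suspension titled without CCL19 (adjusted p = 0.114) or titled plus CCL19 (adjusted p = 0.108). It was also lost with all libraries of replicate 1 (adjusted p = 0.137) or of replicate 2 (adjusted p = 0.367) left out, and with no filter on low counts (adjusted p = 0.225).

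Hsph1, an HSP110 protein that exchanges the nucleotide of HSP70, and the 2 HSP90 genes were called with the replicate block but not without it. Hsph1 ran from 84.0 through 176 to 358 CPM in suspension and from 142.5 through 219 to 395 CPM in collagen, with wide overlap. Its log2 change was 0.45 (SE 0.27, edgeR adjusted p = 0.298), and 0.51 (adjusted p = 0.0326) with the block. The lowest collagen library was replicate 2 at 4.4 mg/ml, the one with the highest Bag3 and Hspa1a.

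Hsp90ab1, the constitutive HSP90, had the highest level of the 10, also per length, at 949 to 1945 CPM in suspension (median 1186) and 1419 to 2699 CPM in collagen (median 1639). Its log2 change was 0.46 (SE 0.19, edgeR adjusted p = 0.117), and 0.48 (adjusted p = 0.017) with the block, and DESeq2 called it without the block (adjusted p = 0.0422). Hsp90aa1, the inducible form, was at 9.56 to 64.6 CPM in suspension (median 26.1) and 21.1 to 114.6 CPM in collagen (median 43.5). Its log2 change of 0.83 was as large as that of Hspa8, with a greater error (SE 0.40, edgeR adjusted p = 0.188), and was 0.82 (adjusted p = 0.0114) with the block. Both HSP90 genes had a higher collagen mean in 3 of 3 replicates. Of the windows of Hsp90aa1, 58.5% also occur in other genes, of which the 3 in the table held at most 0.761% of its counts each.

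The mitochondrial chaperonin genes passed neither fit of the full set of libraries. Both were called at 4.4 mg/ml in the block fit without replicate 2 of that density, which was added with the values known. That fit also called at least 1 of them in collagen against suspension. Hspd1 was at 17.9, 35.6, and 45.5 CPM in suspension titled without CCL19, at 11.3, 24.6, and 30.9 CPM in suspension titled plus CCL19, and at 13.02 to 71.0 CPM in collagen. Its log2 change was 0.35 with a 95% interval of −0.46 to 1.16 (edgeR adjusted p = 0.606), and 0.27 (adjusted p = 0.243) with the block. Hspe1 was at 15.9 to 72.2 CPM in suspension and 25.8 to 90.7 CPM in collagen. Its log2 change was 0.20 with a 95% interval of −0.61 to 1.01 (edgeR adjusted p = 0.783), and 0.28 (adjusted p = 0.228) with the block. Hspe1 in replicate 3 was above replicates 1 and 2 in every group. Without the block these intervals include the changes fitted for Hspa8 and Dnajb1. With it they were −0.08 to 0.61 for Hspd1 and −0.07 to 0.63 for Hspe1, below the blocked changes of those genes. The blocked intervals of Hspa8 (0.57 to 1.225) and Dnajb1 (0.51 to 1.18) still overlapped them. The blocked changes of Hsph1 (0.51), Hsp90ab1 (0.48), and Bag3 (0.55) lay inside both mitochondrial intervals. Differences between genes were not tested. Of the windows, 44.8% of those of Hspd1 and 36.1% of those of Hspe1 also occur in other genes.

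Levels were compared between genes per kilobase of exon. In collagen Hsp90ab1 was at 584 CPM per kilobase, followed by Hspa8 at 100, Dnajb1 at 52.7, Bag3 at 36.0, Hsph1 at 34.0, Hspe1 at 31.98, Hspa1b at 18.4, Hsp90aa1 at 13.9, Hspd1 at 13.2, and Hspa1a at 6.61. The values from Bag3 to Hspe1, and those from Hspa1b to Hspd1, lay within each other's SD. In suspension Hsp90ab1 at 425, Hspa8 at 56.8, and Dnajb1 at 29.7 CPM per kilobase again led, but Hspe1 at 27.9 was within the SD of Dnajb1. The order ended with Hspa1b at 1.35 and Hspa1a at 0.843 CPM per kilobase, each below Hsp90aa1 at 8.39 and Hspd1 at 10.5.

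Of the 10 genes, 5 passed the test of collagen against suspension, all higher (Hspa1a, Hspa1b, Hspa8, Dnajb1, and Bag3), where 7.78% of all genes were called higher. Over all genes 1077 were higher and 1713 lower, and with offsets for GC content and length 1288 and 1430. With the replicate block 8 were called higher, all but Hspd1 and Hspe1, where 15.6% of all genes were. The median log2 change of the 10 was 0.69, against 0.0027 over all genes tested. In a test of any difference among the 6 groups, 3 were called (Hspa1a, Hspa1b, and Bag3; 4.90% of all genes), and 7 with the block (24.3%).

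**Figure D2:**
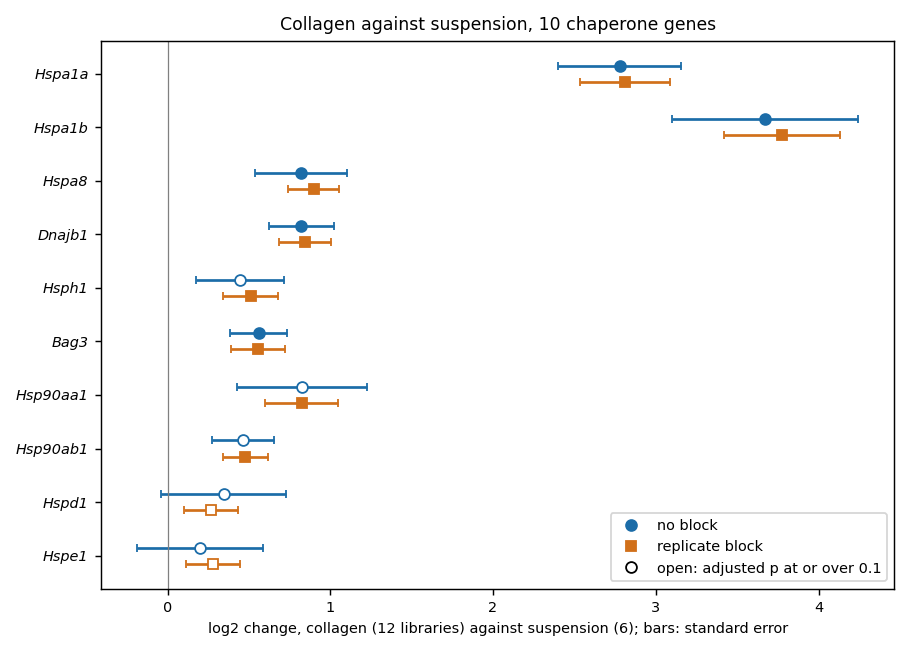
Log2 change of each gene between the 12 collagen and the 6 suspension libraries, with its standard error, without the replicate block (circles) and with it (squares). Filled symbols have an adjusted p under 0.1, which holds for 5 genes without the block and 8 with it, and the block narrows the errors while the changes move little.

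At each density, suspension was compared on its own, always against the same 6 suspension libraries. At 1.7 mg/ml 0 of the 10 genes were called without the block (0.0361% of all genes were higher, and 1113 genes had an unadjusted p under 0.05), and 3 with it, Hspa1a, Hspa1b, and Hspa8 (1.50%). DESeq2 called 2 at this density, Hspa1a and Hspa1b. At 2.6 mg/ml 2 were called, Hspa1a and Hspa1b (4.29%), and 7 with the block, all but Bag3, Hspd1, and Hspe1 (12.0%). Without replicate 3 of that density the block called 4, having lost Hsph1 (adjusted p = 0.173), Hsp90aa1 (adjusted p = 0.532), and Hsp90ab1 (adjusted p = 0.268). The log2 change of Hsp90aa1 there was then 0.40 with the block and −0.086 without it. At 3.5 mg/ml 3 were called, Hspa1a, Hspa1b, and Dnajb1 (1.97%), and 6 with the block, which added Hspa8, Hsph1, and Hsp90aa1 (8.03%). The 3 calls at 3.5 mg/ml were lost when replicate 1 of that density was left out (adjusted p = 0.168, 0.217, and 0.188 in that order), and Dnajb1 at that density also without any 1 of 9 other libraries. Over all genes this density had 273 higher and 406 lower, and 357 and 178 with offsets for GC content and length. At 4.4 mg/ml 4 were called, Hspa1a, Hspa1b, Dnajb1, and Bag3 (6.55%), and 8 with the block, all but the mitochondrial pair (15.8%). The call of Dnajb1 was lost without replicate 3 of that density (log2 change 0.65, adjusted p = 0.194). With all 6 libraries of 1 replicate number left out, Hspa1a and Hspa1b lost the call at 2.6 mg/ml without replicate 2 or 3 (adjusted p up to 0.287 and 0.311) and at 3.5 mg/ml without any of the 3 (up to 0.346 and 0.355). Hspa1a was still called at 4.4 mg/ml in 3 of 3 such fits, whereas Hspa1b (adjusted p = 0.103), Dnajb1 (adjusted p = 0.304), and Bag3 (adjusted p = 0.176) were lost there without replicate 2.

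The change of the inducible pair did not climb evenly with density. In order of density, the log2 change from suspension was 1.98, 2.93, 2.24, and 3.96 for Hspa1a, each with an SE of 0.45. It was 2.63, 4.21, 3.25, and 4.60 for Hspa1b, with SEs of 0.65 to 0.67. The order of the group means was thus suspension, 1.7, 3.5, 2.6, and 4.4 mg/ml for both genes and for Bag3. For Hspa1b the place of 3.5 above 1.7 mg/ml rests on replicate 1. In replicates 2 and 3 Hspa1b was lower at 3.5 mg/ml (18.3 and 6.55 CPM) than at 1.7 mg/ml (23.5 and 6.83 CPM). Hspa1a was lower at 3.5 mg/ml in replicate 2 (6.81 against 7.33 CPM) but higher in replicate 3 (7.97 against 6.36 CPM). Without replicate 1 of 3.5 mg/ml alone, the log2 change there was 1.58 for Hspa1a and 1.81 for Hspa1b, below that at 1.7 mg/ml. That fit does not settle the order, since 1.7 mg/ml kept its replicate 1. Neighbors in the order of group means overlapped for Hspa1a from 1.7 mg/ml on. In replicate 3, both HSP70 genes were higher at 2.6 than at 4.4 mg/ml. For Hspa8, Dnajb1, and Hsph1 the means at 2.6 and 4.4 mg/ml differed by less than the SD at 4.4 mg/ml.

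A linear trend over the 4 densities called 0 of the 10 genes (0.00722% of all genes were called rising, and 997 genes had an unadjusted p under 0.05). DESeq2 called 1, Bag3. With the replicate block 2 were called (0.802%): Hspa1a at 0.60 per mg/ml (adjusted p = 0.0611) and Bag3 at 0.43 per mg/ml (adjusted p = 0.0574). Both rest on 1 library. Without replicate 2 at 4.4 mg/ml the slopes with the block were 0.36 for Hspa1a (adjusted p = 0.19) and 0.28 for Bag3 (adjusted p = 0.145), and 0 genes of the 10 were called.

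**Figure D3:**
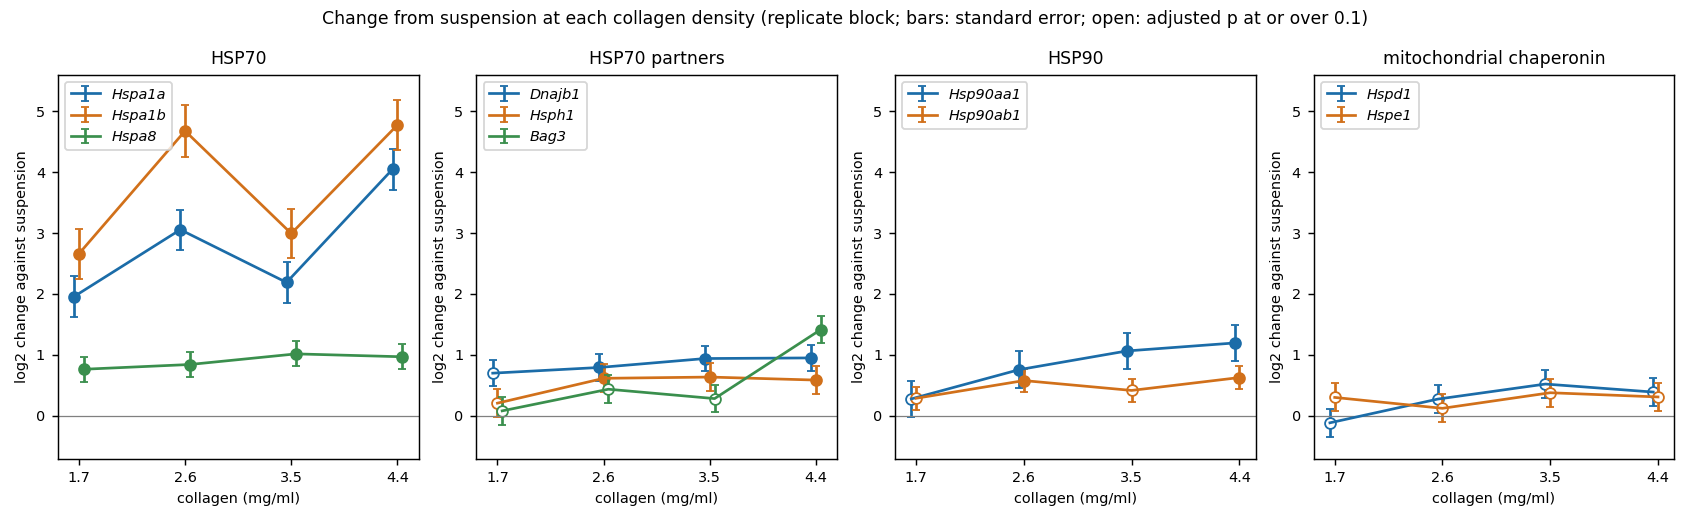
Log2 change from suspension (vertical axis) at each collagen density in mg/ml (horizontal axis), with the replicate block, for the HSP70 genes, their partners, HSP90, and the mitochondrial chaperonin. Bars are standard errors and filled points have an adjusted p under 0.1: Hspa1a and Hspa1b are filled at all 4 densities, Bag3 at 4.4 mg/ml alone, and Hspd1 and Hspe1 at none.

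The 2 suspension groups were compared with each other, and 0 of the 10 genes and 0% of all genes were called, also 0% with the block (855 genes had an unadjusted p under 0.05). The widest gaps were those of Hsp90aa1, Hspa1b, and Hsph1, each higher in the group titled without CCL19 in 3 of 3 replicates. Hsp90aa1 was at 20.3, 55.5, and 64.6 CPM there against 9.56, 15.95, and 32.03 CPM in the group titled plus CCL19, a log2 difference of 1.28 with a 95% interval of −0.07 to 2.64 (edgeR adjusted p = 0.761, and 0.323 with the block). DESeq2 also called 0 of the 10. For Hspa1b the log2 difference was 1.10 (adjusted p = 0.769) and for Hsph1 0.80 (adjusted p = 0.761). Against either suspension group alone, Hspa1a, Hspa1b, and Dnajb1 were called over all densities, and Hspa8 and Bag3 were not. For Hsph1 and Hsp90aa1 the fitted change moved with the control group used, though neither gene was called against either group. Against the suspension titled without CCL19 their log2 changes in collagen were 0.047 (adjusted p = 0.959) and 0.19 (adjusted p = 0.875), and against the suspension titled plus CCL19 they were 0.84 (adjusted p = 0.162) and 1.47 (adjusted p = 0.112), all without the block.

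The wider chaperone network was read from 9 lists of 92 genes, of which 91 are in the table and 83 were tested. In collagen 14 were higher and 4 lower, where 7.78% of all genes were higher and 12.4% lower. With the block 29 were higher and 6 lower, where 15.6% and 19.3% of all genes were. The lists below are read against these shares, and with 4 to 14 genes tested each, 1 or 2 calls in a list do not set it apart from them. The lists' median log2 change was 0.27, against 0.0027 over all genes. Among the factors that control the response, Hsf1 itself was at 30.5 ± 4.02 CPM (SD, n = 6) in suspension and 28.3 ± 5.67 CPM (SD, n = 12) in collagen, a log2 change of −0.12 (edgeR adjusted p = 0.624). Hsf2, a related factor, was higher (means of 48.3 and 88.6 CPM, log2 change 0.85, adjusted p = 0.045), and Hspbap1, which binds the small chaperone HSP27, was lower (means of 22.4 and 14.4 CPM, log2 change −0.65, adjusted p = 0.0359).

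Some other genes of the HSP70 cycle were also higher in collagen. Of 5 other HSP70 and HSP110 genes tested, 3 were higher: Hspa4l, an HSP110 protein, went from 31.8 ± 14.9 CPM (SD, n = 6) to 249 ± 114 CPM (SD, n = 12), a log2 change of 2.98 (SE 0.36, 7.91-fold, edgeR adjusted p = 2.25e-04). Hspa13 had a log2 change of 0.87 (adjusted p = 0.0143) and Hspa4 of 0.75 (adjusted p = 0.0551). Hspa4l thus lay between Hspa1a and Hspa1b in size of change, and its slope with density was 0.13 per mg/ml (adjusted p = 0.987). Of 12 other J-domain proteins, 5 were higher and 1 lower, and with the block 6 were higher and 3 lower. Dnajb4 went from 14.5 to 42.6 CPM (log2 change 1.501, adjusted p = 5.83e-04) and had a slope with density of 0.57 per mg/ml (adjusted p = 0.305, and 0.037 with the block). Dnajb9, a J-domain protein of the endoplasmic reticulum, had a log2 change of 1.26 (adjusted p = 0.0081), and Dnaja2 of 0.74 (adjusted p = 0.0208). Of 8 exchange factors and adaptors, 1 was higher, St13, which steadies HSP70 on its client (log2 change 0.57, adjusted p = 0.0394), and 0 were lower.

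Of 13 cochaperones of HSP90 tested, 0 were higher and 2 were lower, Unc45a, which folds myosin (means of 112 and 73.7 CPM, log2 change −0.60, edgeR adjusted p = 0.0129), and Fkbp5, an immunophilin of steroid receptor complexes (means of 30.8 and 17.9 CPM, log2 change −0.80, adjusted p = 0.0644). With the block 2 were higher and 2 lower. Of 14 genes of the CCT chaperonin and prefoldin, which fold actin and tubulin, 1 was higher, Pfdn2 (log2 change 0.51, adjusted p = 0.0464), and 6 with the block. Of 4 small heat shock genes tested, 0 were called by edgeR with or without the block.

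Beyond the cytosol, Hspa9, the HSP70 of mitochondria, went from 116 to 189 CPM (log2 change 0.72, edgeR adjusted p = 0.00783). The other 9 mitochondrial chaperones and proteases tested were not called without the block. With the block 2 of these 10 genes were higher and 0 lower. Of 12 other known heat shock targets, 2 were higher, Sqstm1, an autophagy receptor (log2 change 1.06, adjusted p = 0.0479), and Jun (log2 change 0.62, adjusted p = 0.0832), and 7 were with the block. Hmox1, named here after its values were seen, had the largest change of that list at 1.62 (SE 1.02, adjusted p = 0.325), and 2.45 with the block (adjusted p = 1.01e-04).

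**Figure D4:**
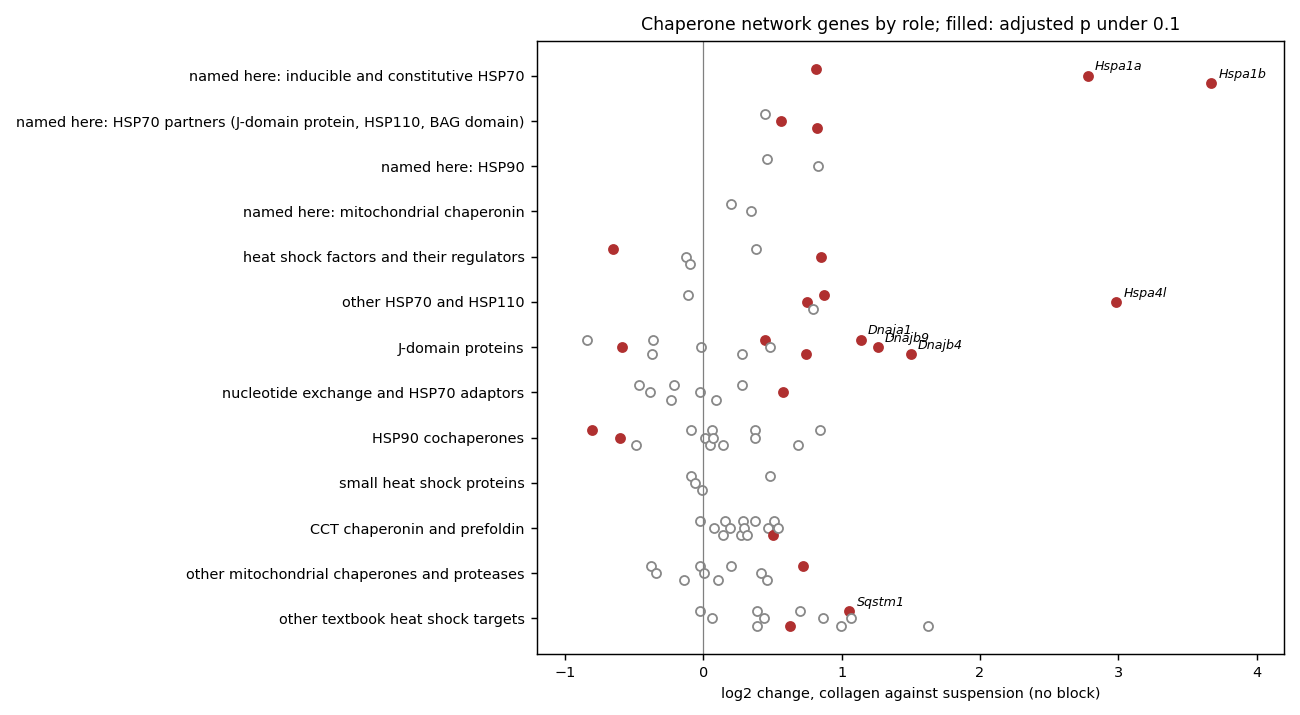
Log2 change between collagen and suspension without the block for the 10 genes and the tested genes of 9 further lists, by role. Filled points have an adjusted p under 0.1: Hspa4l, Dnajb4, Dnajb9, Dnaja1, and Sqstm1 lie above 1 beside Hspa1a and Hspa1b, and the HSP90 cochaperones have filled points on the lower side only.

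How alike the 10 genes varied differed from pair to pair. After the mean of each replicate was subtracted from log2 CPM, Pearson's r over the 18 libraries, which share the 6 groups and their scaling, was 0.96 for Hspa1a with Hspa1b, 0.929 for Hspa1b with Hsp90ab1, 0.903 for Hspa8 with Dnajb1, and 0.883 for Hsp90aa1 with Hspd1. It was 0.817 for Bag3 with Hspa1a but 0.265 for Bag3 with Hsph1. Hspd1 and Hspe1, whose starts adjoin, had an r of 0.215. The genes most like each, with a symbol and out of 12105, were mostly not chaperones. They were Hspa1b and Chka for Hspa1a (r = 0.96 for both), Dcbld2 and Tlcd2 for Hspa1b (0.975 and 0.971), Eef1a1 and Eif4e for Hspa8 (0.965 and 0.95), and Txnl1 and Pole4 for Dnajb1 (0.939 and 0.935). For the other partners and HSP90 they were Swap70 and Ddx21 for Hsph1 (0.95 and 0.943), Tor3a and Ppp1r15a for Bag3 (0.932 for both), Mtrex and Morc3 for Hsp90aa1 (0.982 and 0.961), and Epb41l5 and Hspa1b for Hsp90ab1 (0.939 and 0.929). For the mitochondrial pair they were Eif1a for Hspd1 (0.945) and Atp5mpl and Dnajc15 for Hspe1 (0.952 and 0.932). Ppp1r15a, a stress-induced regulator of translation, went from a mean of 124 CPM in suspension to 310.5 CPM in collagen, and Chka, which makes phosphocholine, from 47.3 to 159 CPM.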

How the data were processed

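RNA of 18 libraries was sequenced as 50-base single-end reads of stranded mRNA libraries. The authors aligned them with STAR 2.7.0f to GRCm38 and deposited, for each Ensembl gene, raw counts in whole numbers. The methods name RSEM for TPM values. Whether RSEM also gave these counts, and how reads with several matches were treated, is not given in the sources used here. All 29875 genes entered, and 29850 had a symbol in the GENCODE annotation.

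From these counts, edgeR 4.0.16 (R 4.3.3) computed TMM scaling, the filterByExpr filter, and quasi-likelihood F-tests over all 18 libraries, adjusted by Benjamini-Hochberg over 13844 genes at an FDR of 0.1. Standard errors were the size of the change divided by the root of F. Log2 CPM had a prior count of 2. DESeq2 1.42.0 was an alternative. The fit without the block was checked on simulated counts for collagen against suspension. These were drawn with no replicate effect, so the check does not cover the block. The total counts gave floors of 3 counts, which cover counting error only.

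Replicate numbers were used as a block because same-numbered libraries share a date and a lane in their names. Deviations from group means correlated between same-numbered libraries with a mean of 0.43 (lowest −0.15), and 15 of 18 correlated best with their own number. None of 153 pairs of libraries were identical. Replicate numbers are called biological replicates in the titles.

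Named genes were the 10, up to 3 called genes of each list, Hsf1 and Hsf2, and the 2 genes most correlated with each, of which 1 is not reported here. The genes, lists, and tests were chosen with earlier results of these data known. The block fits without replicate 2 at 4.4 mg/ml or replicate 3 at 2.6 mg/ml and the fits against single suspension groups were added after seeing the data. GC and length offsets used loess (span 0.5) on the GC content of the longest transcript and the length of all annotated exons together.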

Additional observations from a re-analysis of the deposited data

How the results depend on the processing

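The number of the 10 genes called changed with the replicate block. For any difference, collagen against suspension, the trend, and the 4 densities in rising order, it was 3, 5, 0, 0, 2, 3, and 4 without the block and 7, 8, 2, 3, 7, 6, and 8 with it. In the same order the numbers were 8, 8, 3, 4, 6, 8, and 8 with the block and GC and length offsets. The block fit without replicate 2 at 4.4 mg/ml, added with the values known, gave 8, 9, 0, 4, 8, 7, and 10, and that without replicate 3 at 2.6 mg/ml, also added then, gave 4 at that density. GC and length offsets alone called 1 at 1.7 mg/ml. DESeq2 called 1 in the trend and 2 at 1.7 mg/ml, as did the fit with no filter on low counts. Entering suspension as 0 mg/ml raised the trend to 7 genes. With Hspa1a and Hspa1b summed, 1 gene was called at 2.6 mg/ml, the sum itself. Against suspension titled without CCL19 alone, 3 genes were called over all densities, 1 at 2.6 mg/ml, and none (0) at 3.5 mg/ml. Against suspension titled plus CCL19 alone, 3 were called over all densities. With DESeq2's size factors in edgeR, an FDR of 0.05, or the compared groups alone, each number was within 1 gene of the main one.

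Leaving out 1 library or 1 replicate number (21 fits) gave 0 to 3 genes for any difference, 2 to 6 for collagen against suspension, and 0 for the trend and between the suspension groups. For the densities in rising order it gave 0, 0 to 2, 0 to 3, and 1 to 6. Hspa1a and Hspa1b were called in collagen against suspension in all 21. At each density, only genes called with the block were followed through the settings. Hspe1 at 2.6 mg/ml, outside these, was −0.007 without the block and 0.124 with it. Among the values followed, signs turned only for those not called without the block, of which Hsp90aa1 at 2.6 mg/ml was called with it. These were Hspe1 in collagen against suspension with GC and length offsets (−0.052), the Hspe1 trend with those offsets and the block (−0.028), and 5 ranges with libraries left out. These were the trends of Hspe1 (−0.19 to 0.215), Dnajb1 (−0.0078 to 0.254), Hspa8 (−0.020 to 0.179), and Hspd1 (−0.024 to 0.318), and Hsp90aa1 at 2.6 mg/ml (−0.086 without replicate 3 of that density, to 1.25).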
